A study of Mus musculus with 36 samples.

Results

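The 10 genes described here are the Kruppel-like factor genes Klf2, Klf3, Klf4, Klf6, Klf9, Klf10, Klf11, Klf12, Klf13 and Klf15, chosen by name out of 52230 genes with values in cultured mouse hepatocytes. Their levels were followed through overexpression of glucokinase (GK), the enzyme that phosphorylates glucose on its entry into hepatocyte metabolism, and of its regulatory protein GKRP (encoded by Gckr), which binds GK and holds it in the nucleus. Klf10 was the member that rose when GK was overexpressed, and it was lower when GKRP was added to GK, below every GK culture for each form of GKRP except the leucine form of the mouse protein. Klf15 was low in every culture without a GKRP vector and higher in every culture that received one.

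Kruppel-like factors are zinc finger proteins that bind GC-rich and CACCC sequences in promoters and either activate or repress transcription, some of them by recruiting the repressors CtBP or Sin3A. In liver, Klf10 (also known as TIEG1, an early response gene of TGF-beta) is a known glucose-responsive gene and a candidate target of ChREBP, the carbohydrate response factor encoded by Mlxipl. Klf15 is known for the control of amino acid breakdown and gluconeogenesis, and Klf9 and Klf15 are both known glucocorticoid-responsive genes.

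RNA was sequenced from 36 cultures of primary hepatocytes isolated from 3 female mice of the GCKR-P446L-EMI-B6N strain, aged 14 weeks. Mice 1 and 2 are labelled Gckr-446L and mouse 3 Gckr-446P/L, and the cells are described as GKRP-deficient. There were 10 conditions: untreated; adenoviral vectors for human GKRP with proline (hP) or leucine (hL) at residue 446, or for mouse GKRP with proline (mP) or leucine (mL), at endogenous GK; an adenoviral vector for GK alone (GK); and GK together with each GKRP vector (GK+hP, GK+hL, GK+mP, GK+mL). The sources differ on which transcript of mouse Gckr these mouse vectors carried, and the transcripts encode different forms of the protein, so which form of mouse GKRP the mP and mL values stand for is uncertain. Untreated and GK hepatocytes had 2 cultures from each mouse, 6 in all, and the other conditions 1 from each mouse, 3 in all. All cultures were kept overnight with 10 nM insulin and 10 nM dexamethasone, a glucocorticoid, and after 24 h at 5 mM glucose were incubated for 4 h in 25 mM glucose. Untreated cells received no vector, so that GKRP and the adenovirus itself cannot be told apart in a comparison with them. GK+GKRP cells received a GKRP vector in addition to the GK vector, and none of the 10 conditions held an empty vector. GKRP and the added vector therefore cannot be told apart against GK either.

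Expected counts per culture summed to between 3924674 and 10046158. Mouse Gckr averaged 17590 CPM (expected counts scaled to a common library size) in the mP samples and 14250 CPM in the mL samples. One culture stood apart: the first GK culture of mouse 3 held Gckr at 1459 CPM, against 51.7 to 97.8 CPM in the other 5 GK cultures, so the Klf10 and Klf15 differences called against GK are also given without it. The gene lists and likeness values below include it. The 8 hepatocyte markers (Alb at 62150 CPM or more in every sample) were all detected. Each marker of macrophages, endothelial cells and stellate cells had reads in some sample of every condition. Of the 10 stellate markers only 5 had enough reads to be tested. Des, Col1a1, Col1a2, Pdgfrb and Acta2 were near the floor, with medians of 0.148 to 0.476 CPM and 0 in some samples.

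Levels were compared between genes as CPM per kilobase of the canonical transcript, the mean of the 3 mice. In untreated hepatocytes Klf6, a factor induced in liver injury, was the most abundant at 63.7 ± 12.4 CPM per kb (SD, n = 3). Klf3, a CtBP-dependent repressor, followed at 11.9 ± 2.80 CPM per kb, Klf9 at 11.7 ± 2.20 CPM per kb and Klf13 at 11.1 ± 2.01 CPM per kb. The values of these 3 genes overlapped between mice. Klf10 stood at 7.29 ± 3.94 CPM per kb, with mouse 3 at 11.8 CPM per kb. Klf15 (2.75 ± 0.62 CPM per kb), Klf11 (2.33 ± 0.97 CPM per kb), Klf12 (2.06 ± 0.33 CPM per kb) and Klf4 (1.68 ± 0.51 CPM per kb) were lower and overlapped each other. Klf2, a factor of the flow response of endothelium, was the least abundant at 0.12 ± 0.04 CPM per kb.

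**Figure D1:**
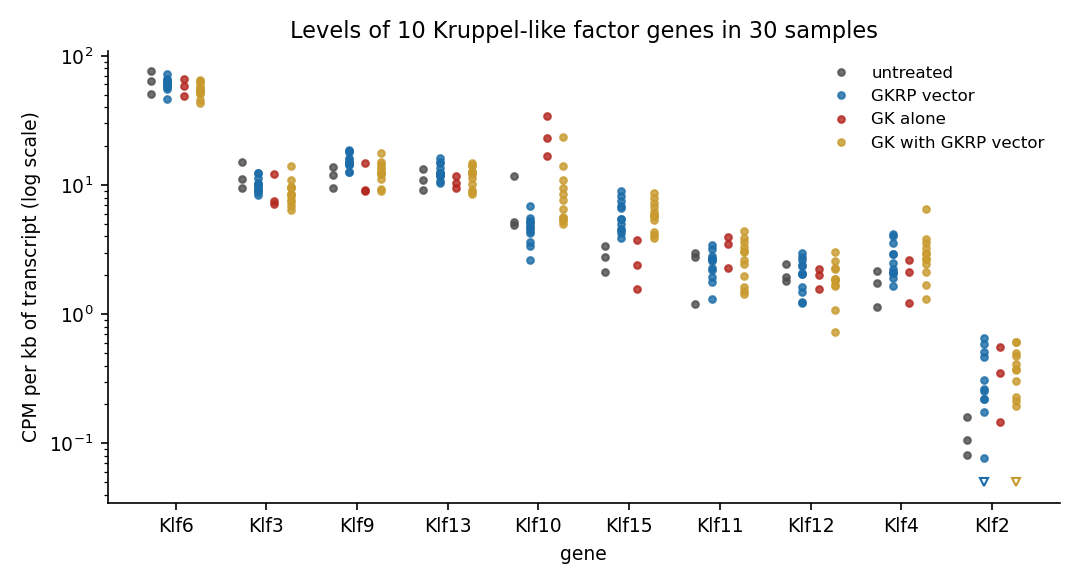
Level of each of the 10 genes in 30 samples (1 point for each mouse and condition) in CPM per kb of transcript, on a log axis, with colours for untreated cells, a GKRP vector at endogenous GK, GK alone and GK with a GKRP vector. Open triangles at the lower edge mark the 2 samples in which Klf2 was at 0. Klf10 spans the widest range of the genes above Klf2, from 2.64 to 34.0 CPM per kb, and Klf6 lies highest throughout, at 43.3 to 75.9 CPM per kb.

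Klf10 (ENSMUSG00000037465) lies on the minus strand of chromosome 15 at 38291703 to 38300959 of GRCm39, and Klf15 (ENSMUSG00000030087) on the plus strand of chromosome 6 at 90438998 to 90452220. Because these 2 genes were the members called without the mouse in the fit, the sequence next to the start of their canonical transcripts is shown first, 5′ to 3′ on the strand of the gene, in lower case. Capitals mark the GC box GGGCGG, which reads as CCGCCC on the strand shown, and the E-box CACGTG, the core of the element that ChREBP is known to bind.

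Klf10, chr15:38300960-38301114, GRCm39, minus strand, up to the first base before the start: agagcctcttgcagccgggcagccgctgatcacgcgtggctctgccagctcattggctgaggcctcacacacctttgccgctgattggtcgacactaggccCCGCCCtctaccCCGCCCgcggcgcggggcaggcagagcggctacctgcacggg

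Klf15, chr6:90439196-90439366, GRCm39, plus strand, from 245 to 75 bases before the start of the canonical transcript: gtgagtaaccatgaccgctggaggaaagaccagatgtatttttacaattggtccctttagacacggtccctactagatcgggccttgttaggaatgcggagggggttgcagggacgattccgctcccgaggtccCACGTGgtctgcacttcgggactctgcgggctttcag

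The Klf10 stretch holds 2 GC boxes, ending 49 and 37 bases before the canonical start. The Klf15 stretch holds 1 E-box, 111 to 106 bases before its canonical start. In the median culture most of the Klf15 abundance was assigned to another transcript, Klf15-202, which starts downstream at 90439583. In the 250 bases before the canonical start, CACGTG was found in 4 of the 10 genes (Klf4, Klf6, Klf11 and Klf15). It was in 6.26% of 21757 protein-coding genes, and in 8.01% of the 11168 of them that were tested for expression here. CACGTG occurred 2 times in Klf15 and 1 time in each of Klf4, Klf6 and Klf11. These 5 occurrences are shown with 10 bases on either side, to let their flanks be compared.

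Klf4, chr4:55532642-55532667, minus strand: cccccgccccCACGTGcgcggagttt
Klf6, chr13:5911435-5911460, plus strand: ccaagctggtCACGTGgggggagaag
Klf11, chr12:24701146-24701171, plus strand: cggaccaaaaCACGTGccgccgcccg
Klf15, chr6:90439320-90439345, plus strand: cccgaggtccCACGTGgtctgcactt
Klf15, chr6:90439376-90439401, plus strand: gaacccgtctCACGTGcgcatcggag

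Klf10 had no CACGTG in its 250 bases. The carbohydrate response element (ChoRE), a pair of E-box-like sites spaced by 5 bases, was searched on both strands as a fixed pattern. It was in none of the 10 windows and in 0.0643% of all windows. Pairs of sites that depart from the pattern were not counted. The palindromic glucocorticoid response element, searched as an exact match, was in none of the 21757. GGGCGG was in 8 of the 10 windows (36.3% of all, 49.8% of tested genes) and not in those of Klf9 and Klf15. CACCC was in 5 of the 10 (52.9% of all, 55.9% of tested genes). A motif match describes these letters only, and the window says nothing of elements farther away.

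Whether GK induced the family was first asked by comparing GK alone with the 5 combined groups at endogenous GK (untreated, hP, hL, mP, mL). Klf10 was at 54.7 and 49.3 CPM in the GK cultures of mouse 1, at 76.6 and 66.2 CPM in those of mouse 2, and at 109 and 97.5 CPM in those of mouse 3. In untreated cultures it was at 16.6 and 11.9 CPM (mouse 1), 16.6 and 15 CPM (mouse 2) and 39.01 and 34.0 CPM (mouse 3). In the 12 cultures with a GKRP vector at endogenous GK it ranged from 7.995 CPM (hL, mouse 2) to 21.2 CPM (mL, mouse 3). All 6 GK cultures lay above all 18 cultures at endogenous GK. With the cultures of 1 mouse and condition taken as 1 sample, 0.567% of 12177 genes were higher without overlap in this comparison. Among the mice, mouse 3 was the highest in both untreated and GK cells.

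Klf10 rose 4.73-fold with GK against the 5 combined groups (log2 2.24, SE 0.25, edgeR adjusted p = 4.89e-06, higher in 3 of 3 mice). It was the only 1 of the 9 members tested that was called, in a comparison that called 0.394% of 12177 genes raised and 0.0328% lowered. A call is an adjusted p under 0.05 with a fold of at least 1.3 or at most 0.7. Without the GK culture that held Gckr reads the value was log2 2.20 (adjusted p = 6.17e-06). With Salmon's effective lengths as an offset it was log2 2.11 and lost the call (adjusted p = 0.0531).

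Against untreated hepatocytes alone, Klf10 was higher with GK by log2 1.75 (SE 0.35), again in 3 of 3 mice and with no overlap between the groups, as for 3.04% of all genes. This did not pass the adjusted test (adjusted p = 0.140), in a comparison where 0.00821% of genes were called raised. In a paired fit, which gives each mouse a level of its own, the value was log2 1.80 (adjusted p = 1.21e-04) and Klf10 rose, in a fit that called 0.345% of genes raised. That call was lost without mouse 2 (log2 1.62, adjusted p = 0.209) and kept without the GK culture that held Gckr reads (adjusted p = 1.57e-04).

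No other member rose with GK. Klf11 (TIEG2), the closest relative of Klf10, was at a mean of 13.3 ± 3.55 CPM with GK and 9.50 ± 3.97 CPM in untreated cells (SD, n = 3). Its difference from the 5 combined groups was log2 0.41 (SE 0.28, adjusted p = 0.876). Klf15 averaged 6.12 ± 2.59 CPM with GK and 6.53 ± 1.47 CPM in untreated cells, log2 -0.10 (SE 0.34, adjusted p = 1.00).

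**Figure D2:**
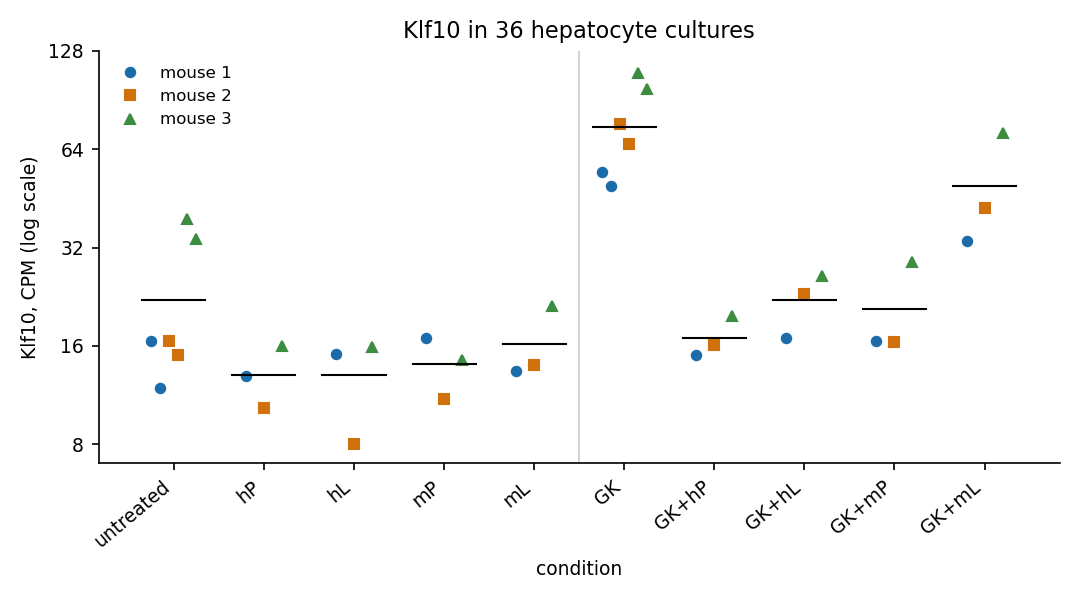
Klf10 in each of the 36 cultures in CPM on a log axis, by condition, with a colour and symbol for each mouse and a black line at the mean of the 3 mice. The 6 GK cultures sit between 49.3 and 109 CPM, GK+hP, GK+hL and GK+mP between 15.03 and 28.95 CPM, and GK+mL between 33.4 and 71.5 CPM.

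The next question was whether GKRP, added to GK, opposed the induction and whether the 446 residue mattered. Klf10 was at 15.03, 16.1 and 19.8 CPM with GK+hP in mice 1, 2 and 3. It was at 16.9, 23.1 and 26.1 CPM with GK+hL, and at 16.53, 16.45 and 28.95 CPM with GK+mP. With GK+mL it was at 33.4, 42.2 and 71.5 CPM. The first 3 conditions lay below every GK culture, whereas GK+mL of mouse 3 lay within the range of the GK cultures. By sample, 6.16% of genes were lower without overlap in GK+hP than in GK, 5.58% in GK+hL and 6.11% in GK+mP.

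Klf10 fell by 2.14 on the log2 scale with GK+hP (SE 0.38, edgeR adjusted p = 0.0197; 0.0985% of genes called lowered) and by 1.86 with GK+mP (SE 0.38, adjusted p = 0.0250; 0.0657% of genes called raised and 0.205% lowered). Both differences had the same sign in 3 of 3 mice. The call with GK+hP was lost without mouse 1 (adjusted p = 0.193) or mouse 2 (adjusted p = 0.291), and the call with GK+mP without any 1 mouse (adjusted p = 0.0537 to 0.266). In the paired fit (2.25% of genes called raised and 2.37% lowered with GK+mP) both calls held with each mouse left out (adjusted p = 0.00611 to 0.0323 for GK+hP and 0.00546 to 0.0269 for GK+mP). With effective lengths as an offset the differences were log2 -1.26 and -1.80 (adjusted p = 0.997 and 0.559). Without the GK culture that held Gckr reads they were log2 -2.10 and -1.81 (adjusted p = 0.0216 and 0.0285), and the paired calls against GK with GK+hP, GK+hL and GK+mP were kept.

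With GK+hL Klf10 was lower by log2 -1.76 (SE 0.38, adjusted p = 0.220; 0.00821% called lowered). It was called in the paired fit (log2 -1.73, adjusted p = 0.00235; 0.312% called lowered), but not when any mouse was then left out (adjusted p = 0.0933 to 0.175). With GK+mL it was lower than with GK by log2 -0.61 (SE 0.36, adjusted p = 0.966; 0.0% called lowered), lower in 3 of 3 mice and not called in the paired fit (adjusted p = 0.306). Over the 4 GKRP vectors the mean difference from GK was log2 -1.59 (SE 0.25, adjusted p = 5.29e-04; 0.501% called lowered), so that Klf10 fell to 27.3 CPM from 75.0 CPM. Without the GK culture that held Gckr reads this was log2 -1.55 (adjusted p = 6.65e-04), and with effective lengths as an offset log2 -1.28 (adjusted p = 0.753).

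The leucine and proline forms of mouse GKRP were compared directly in the presence of GK. The 2 vectors did not reach the same transcript level. Mouse Gckr averaged 11460 CPM with GK+mL and 16400 CPM with GK+mP, and was lower with GK+mL in each mouse. The part of this level in the Klf10 difference was not tested. Klf10 was higher with GK+mL than with GK+mP by log2 1.25 (SE 0.36), with 3 of 3 mice in this direction. It did not pass without pairing (adjusted p = 1.00; 0.0164% called raised). After pairing by mouse it rose by log2 1.24 (adjusted p = 0.0190; 0.189% called raised), a call that was lost without mouse 2 (adjusted p = 0.345) or mouse 3 (adjusted p = 0.528). For human GKRP the difference of GK+hL from GK+hP was log2 0.38 (SE 0.36, adjusted p = 1.00), higher in 3 of 3 mice. Whether the difference between the leucine and proline forms was unlike in mouse and human GKRP was not tested. At endogenous GK the leucine forms differed from the proline forms by log2 0.10 (SE 0.26, adjusted p = 1.00).

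The effect of GK was also examined in the presence of the vectors. Averaged over the 4 GKRP vectors, Klf10 was at 27.3 CPM with GK and at 14.1 CPM at endogenous GK, log2 0.82 (SE 0.18, adjusted p = 0.279; 0.0164% called raised). Under the paired fit the value was log2 0.81 (adjusted p = 0.00153; 0.14% called raised), lost without mouse 2 (adjusted p = 0.223) or mouse 3 (adjusted p = 0.338). The difference between this and the effect of GK without GKRP was log2 -0.93 (SE 0.39, adjusted p = 1.00), negative in 3 of 3 mice.

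At endogenous GK the mean of Klf10 over the 4 vectors was 14.1 CPM, against 22.2 CPM in untreated cells, log2 -0.66 (SE 0.27), which did not pass (adjusted p = 0.345; 0.402% called lowered). In the paired fit Klf10 fell by 0.59 on the log2 scale (adjusted p = 0.0392; 1.05% called lowered). The differences within mice were log2 -0.02, -0.55 and -1.10 for mice 1, 2 and 3, and the call was lost without mouse 2 (adjusted p = 0.182) or mouse 3 (log2 -0.29, adjusted p = 0.697).

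Klf15 was higher in the cultures that received a GKRP vector, with or without GK. In the 12 cultures without a GKRP vector it was at 2.48 to 9.07 CPM (median 5.90), and in the 24 with one at 9.10 to 21.0 CPM (median 13.7). The groups did not overlap, although the nearest cultures, GK of mouse 1 and mL of mouse 2, were at 9.07 and 9.10 CPM. Among 12177 genes, 0.567% were higher in all 24 cultures in this way. At these levels a culture held between 14 and 148 Klf15 reads.

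By mouse, untreated hepatocytes had Klf15 at 5.96 and 7.32 CPM (mouse 1), 8.38 and 7.72 CPM (mouse 2) and 4.92 and 5.19 CPM (mouse 3). With hP it was at 15.5, 10.8 and 11.9 CPM, with hL at 19.5, 16.2 and 13.0 CPM, with mP at 21.0, 12.9 and 10.2 CPM, and with mL at 17.7, 9.10 and 10.6 CPM in mice 1, 2 and 3. Every vector culture lay above the untreated cultures of its mouse, the smallest step being that of mL in mouse 2.

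Over the 4 vectors Klf15 rose by log2 1.10 (SE 0.28, 14.1 against 6.53 CPM, adjusted p = 0.0410; 1.49% of genes called raised). This call was lost without any 1 mouse (adjusted p = 0.0729 to 0.515), with no filter on low counts (adjusted p = 0.0692) and without the GK culture that held Gckr reads (adjusted p = 0.0648). After pairing by mouse it was log2 1.06 (adjusted p = 3.55e-04) and held without each mouse (adjusted p = 0.00648 to 0.0471). Each single vector was then called as well, with log2 values of 0.94 for hP, 1.29 for hL, 1.11 for mP and 0.89 for mL (adjusted p = 0.0125, 6.39e-04, 0.00246 and 0.0161). With a mouse then left out, hP was not called in any of the 3 cases (adjusted p = 0.0509 to 0.406), hL was lost without mouse 3 (adjusted p = 0.0800), and mP and mL were lost without mouse 1 (adjusted p = 0.0519 and 0.165) or mouse 3 (adjusted p = 0.0899 and 0.301). Between 1.95% and 2.51% of genes were called raised in these comparisons, and between 0.46% and 0.895% lowered. Without pairing no single vector passed (adjusted p = 0.0790 to 0.382; 0.706% to 0.994% called raised, 0.0739% to 0.14% lowered).

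In the presence of GK, Klf15 was at 13.9, 13.7 and 13.8 CPM with GK+hP, at 18.5, 9.72 and 9.28 CPM with GK+hL, at 20.1, 12.8 and 10.2 CPM with GK+mP and at 17.2, 15.8 and 14.6 CPM with GK+mL in mice 1, 2 and 3. GK alone had given 8.58 and 9.07 CPM in mouse 1, 5.41 and 5.83 CPM in mouse 2, and 4.66 and 2.48 CPM in mouse 3. Klf15 thus rose over the 4 GK+GKRP conditions by log2 1.21 (SE 0.29, adjusted p = 0.0230; 1.11% called raised). The call was lost without mouse 2 (adjusted p = 0.304) or mouse 3 (adjusted p = 0.476) and with effective lengths as an offset (log2 1.03, adjusted p = 0.666). Under the paired fit it was log2 1.25 (adjusted p = 5.64e-05) and held without each mouse (adjusted p = 5.45e-04 to 0.0280). Leaving out the GK culture that held Gckr reads gave log2 1.28 (adjusted p = 0.0278). Of the single conditions only GK+mP was called against GK, in the paired fit (log2 1.25, adjusted p = 0.0280), and not when any mouse was left out (adjusted p = 0.119 to 0.152). Without the GK culture that held Gckr reads this paired value was log2 1.34 (adjusted p = 0.0255).

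Among the cells with GKRP vectors Klf15 differed with GK by log2 0.02 (SE 0.17, adjusted p = 1.00), from 14.1 to 14.2 CPM. Klf15 was lower in GK alone than in the 5 combined groups by log2 -1.03 (SE 0.34, adjusted p = 0.250), and fell by 1.06 on the log2 scale in the paired fit (adjusted p = 0.0335; 0.69% called lowered). Of those 5 groups, 4 carried GKRP vectors. The call was lost without any 1 mouse (adjusted p = 0.0608 to 0.415) and kept without the GK culture that held Gckr reads (log2 -1.14, adjusted p = 0.0308). In GK+mL against GK+mP, where Klf10 was higher, Klf15 differed by log2 0.13 (SE 0.34, adjusted p = 1.00).

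**Figure D3:**
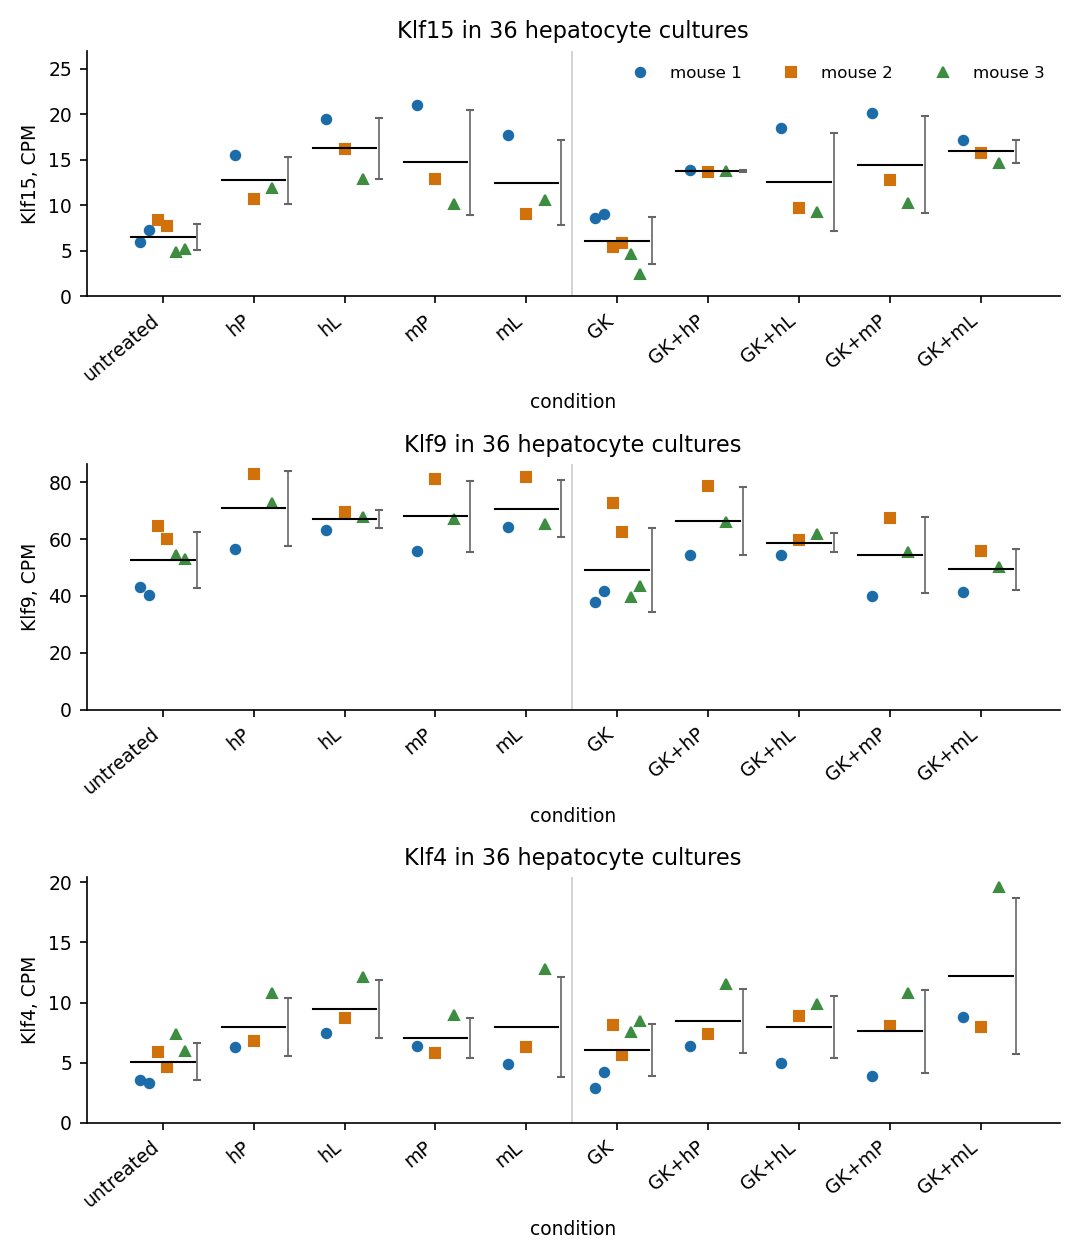
Klf15, Klf9 and Klf4 in each of the 36 cultures in CPM, by condition, with a colour and symbol for each mouse, a black line at the mean of the 3 mice and a bar for the SD between mice. Klf15 lies at 9.10 CPM or above in all 24 cultures with a GKRP vector and at 9.07 CPM or below in the 12 without, while the Klf9 and Klf4 groups overlap.

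Klf9, which like Klf15 is known to respond to glucocorticoids, was called with the vectors in the paired fit and not without pairing. It averaged 52.5 ± 9.86 CPM in untreated cells (SD, n = 3) and, with the 4 vectors, from 67.1 ± 3.25 CPM (hL) to 70.8 ± 13.1 CPM (hP). The mean difference was log2 0.39 (SE 0.17, adjusted p = 0.398). In the paired fit it rose by log2 0.40 (adjusted p = 0.00417; 3.1% of genes called raised), higher in 3 of 3 mice, and with hP (log2 0.43, adjusted p = 0.0254) and mL (log2 0.44, adjusted p = 0.0186). The mean call was lost without mouse 1 (adjusted p = 0.0985) or mouse 3 (adjusted p = 0.142), and both single calls were lost without any 1 mouse (adjusted p = 0.0781 to 0.457). In the presence of GK the difference of Klf9 with the vectors was log2 0.21 (SE 0.17, adjusted p = 0.857). Klf9 was also lower with GK than in the 5 combined groups, by log2 -0.42 (SE 0.17, edgeR adjusted p = 0.466), in 3 of 3 mice. The paired fit gave log2 -0.44 (adjusted p = 0.0325), short of the fold needed for a call. Against untreated cells alone the difference was log2 -0.10 (SE 0.21). Among cells with GKRP vectors it lay between log2 -0.38 and -0.25 over the alternative fits, also short of that fold.

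Klf4, a factor of epithelial differentiation and of endothelium, averaged 5.08 ± 1.55 CPM in untreated cells and between 7.05 and 9.45 CPM with the 4 vectors. The mean difference was log2 0.66 (SE 0.34, adjusted p = 0.606). After pairing by mouse Klf4 rose by log2 0.66 (adjusted p = 0.0128), by log2 0.90 with hL (adjusted p = 0.0115), and by log2 0.54 over the 4 GK+GKRP conditions against GK (adjusted p = 0.0370; 2.92% called raised). Of these, the first was lost without mouse 1 (adjusted p = 0.126) or mouse 3 (adjusted p = 0.306) and the others without any 1 mouse (adjusted p = 0.0511 to 0.294 for hL and 0.0626 to 0.413 for GK+GKRP). The call for GK+GKRP was also lost without the GK culture that held Gckr reads (log2 0.51, adjusted p = 0.0541). The highest value was 19.6 CPM, in GK+mL of mouse 3.

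Klf2 and Klf4 are also expressed by endothelial cells. The 11 endothelial markers summed to 106 to 143 CPM in untreated samples, 98.9 to 157 CPM with the vectors, 98.5 to 160 CPM with GK and 83.0 to 162 CPM with GK and the vectors, and none of the 11 was called in these comparisons. Their part in the Klf4 values was not tested, and in cultures such as these fewer cells of a type and less RNA per cell cannot be told apart. Klf2 held 0 to 8 reads per culture, too few to be tested. The 3 cultures without a Klf2 read allow a level of up to 0.453 to 0.556 CPM (3 reads, counting error only).

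**Figure D4:**
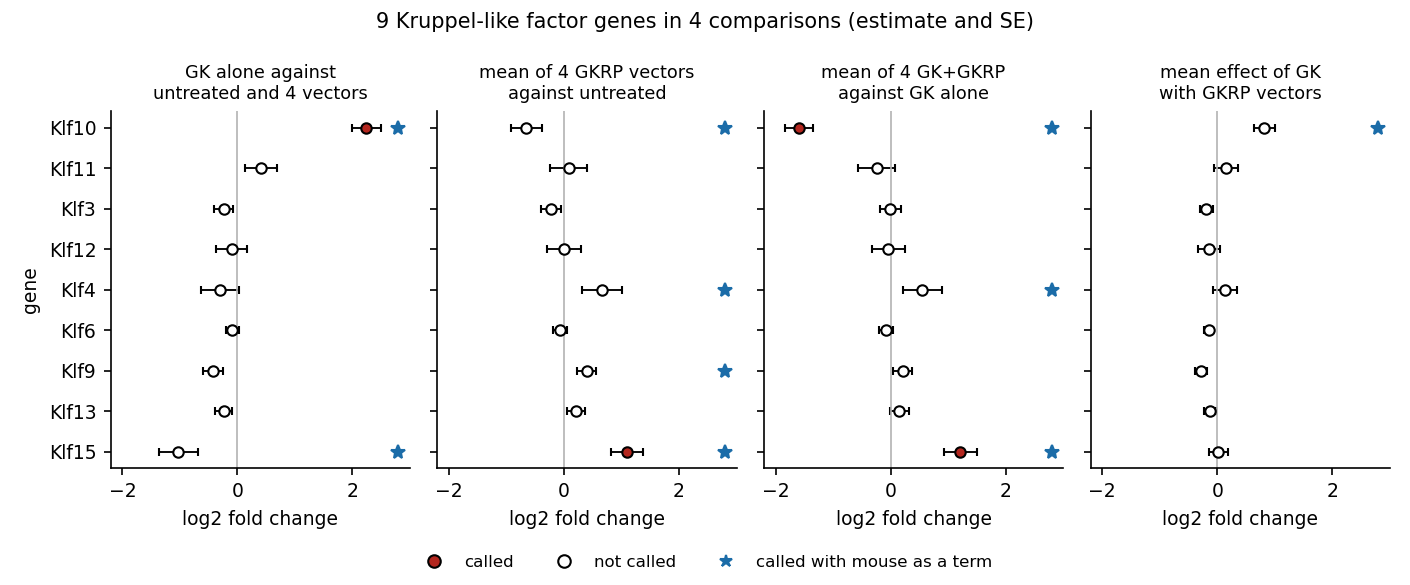
Log2 fold change (point) and its standard error (bar) of the 9 members tested, in 4 comparisons. Filled points passed the edgeR call without pairing, and stars mark calls in the paired fit. Klf10 lies farthest from 0 with GK (2.24), with GK and the vectors against GK (-1.59) and with GK among vector cultures (0.82), and Klf15 with the vectors (1.10).

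The remaining 5 members, Klf3, Klf6, Klf11, Klf12 and Klf13, were called in none of 17 comparisons, with or without pairing (lowest adjusted p = 0.0783, for Klf11 in the paired fit). In the 4 comparisons of the plot of log2 fold changes, Klf6 lay between log2 -0.15 and -0.07 (SE 0.08 to 0.12), the narrowest of the 9. Klf3 lay between -0.24 and 0.00 (SE 0.11 to 0.18) and Klf13, a factor of lymphocyte development, between -0.24 and 0.20 (SE 0.10 to 0.16). Klf12, a CtBP-dependent repressor, lay between -0.14 and 0.00 (SE 0.19 to 0.29), and Klf11 between -0.24 and 0.41 (SE 0.21 to 0.32).

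Over the conditions Klf6 averaged from 216 CPM (GK+mL) to 272 CPM (mL), and Klf3 from 40.4 CPM (GK+mP) to 62.0 CPM (untreated). Klf13 averaged from 64.7 CPM (GK+mL) to 86.2 CPM (hL), Klf12 from 9.51 CPM (GK+mP) to 13.1 CPM (GK+hP), and Klf11 from 9.50 CPM (untreated) to 13.3 CPM (GK). The SD between the 3 mice in untreated cells was 52.5 CPM for Klf6, 14.6 CPM for Klf3 and 12.9 CPM for Klf13. Of the 17 other Klf and Sp genes, 7 were tested and none was called without pairing. Klf16 had log2 0.48 (SE 0.16) with the vectors and 0.57 (SE 0.16) with GK and the vectors, and rose in both in the paired fit (adjusted p = 0.0227 and 0.00556; 3.1% and 2.92% of all genes called raised).

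The genes whose level most resembled that of Klf10 over the 30 samples were taken by Pearson's r of log2 CPM among 12176 genes. They were Txnip (r = 0.91), an arrestin that restrains glucose uptake, Tkfc (0.89), the triokinase of fructose metabolism, Arrdc4 (0.89), a second arrestin, Mid1ip1 (0.88), an activator of acetyl-CoA carboxylase, Acaca (0.86), that carboxylase, Slc25a44 (0.85), a mitochondrial carrier, Ddhd2 (0.84), a lipase, and Acly (0.82), ATP citrate lyase. The samples share mice and conditions, so no p is given. Txnip averaged 61.2 ± 54.8 CPM in untreated cells, 238 ± 127 CPM with GK, 29.3 ± 14.1 CPM with GK+mP and 132 ± 70.8 CPM with GK+mL, the same order as Klf10. Among the members Klf13 (-0.56), Klf9 (-0.55) and Klf15 (-0.48) had the most negative r with Klf10 and Klf11 (0.28) the highest.

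Many of the ChREBP and glucose response genes rose with GK. Of the 22 genes of this list, which does not hold Klf10, 21 were tested, and 13 rose and none fell with GK against the 5 combined groups (median log2 1.18, against -0.01 over all genes; 0.394% of genes called raised), 19 in the paired fit (1.3%). G6pc, the glucose-6-phosphatase catalytic subunit, rose by log2 3.17 (SE 0.55), Rgs16, a regulator of G-protein signalling, by log2 3.14 (SE 0.35), Txnip by log2 3.10 (SE 0.47) and Angptl8, an inhibitor of lipoprotein lipase, by log2 2.43 (SE 0.27). With GK and the vectors against GK, 11 fell and none rose (median log2 -0.96, against 0.01 over all genes; 0.501% called lowered), 15 in the paired fit (1.42%). In GK+mL against GK+mP 1 rose, Tkfc (log2 0.89, SE 0.15, adjusted p = 0.0304; 0.0164% called raised), and 7 did in the paired fit (0.189%). With the vectors at endogenous GK 1 fell, Txnip (log2 -1.69, SE 0.44, adjusted p = 0.0403; 0.402% called lowered).

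Few genes of the other lists were called. Of 12 glucocorticoid response genes, all tested, Dusp1, a MAP kinase phosphatase, rose with GK against the 5 combined groups (log2 0.61, SE 0.12, adjusted p = 0.0101; 0.394% of all genes called raised). Cdkn1a, a cell cycle inhibitor, rose with the vectors (log2 0.44, SE 0.09, adjusted p = 0.00452; 1.49% called raised). None was called in GK with the vectors against GK, and 1, Tat, the tyrosine aminotransferase, was raised there in the paired fit (log2 0.70, adjusted p = 0.0316; 2.92% called raised). With the vectors 8 of the 12 had a positive value (median log2 0.11, against 0.00 over all genes), and with GK and the vectors 6 did (median log2 0.08, against 0.01).

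Of the 13 immediate early genes tested, the 11 TGF-beta response genes tested and the 14 circadian genes, none was called with GK, with the vectors or with GK and the vectors. Over all genes these comparisons called 0.394%, 1.49% and 1.11% raised. Egr1 (log2 -0.63, SE 1.01) and Ier3 (log2 0.52, SE 0.33) had the largest values of the first list with GK. Ciart (log2 -0.46, SE 0.32) and Hlf (log2 0.39, SE 0.23) had those of the circadian list, and in the TGF-beta list Tgfb1 was at log2 -0.37 (SE 0.43). Under the paired fit Ier3 and Cry2 rose with GK (1.3% of all genes called raised) and Nr1d2 with the vectors (3.1%). Of 10 interferon response genes tested, taken as a sign of the adenovirus, none was called with the vectors (median log2 0.06), and their summed level was 241 to 459 CPM in untreated samples and 194 to 506 CPM with the 4 vectors.

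Salmon divided the reads of a gene among its transcripts unevenly between cultures. Klf10-201, the canonical transcript, held a median of 46.9% of the Klf10 TPM (Salmon's length-scaled abundance), ranging from 0 to 100%, and Klf10-205 a median of 19.9% (0 to 91.3%). For Klf15 the largest share was that of Klf15-202, a median of 91.1% (0 to 100%), which starts at 90439583, downstream of the canonical start, whereas the canonical Klf15-201 had a median of 0. Values are therefore given for whole genes.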

How the data were processed

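The deposited files hold Salmon 1.4.0 output for each culture, which the authors made against Gencode M26 transcripts (GRCm39) after FastQC. The deposited expected counts (estimated reads per transcript) were summed per gene for the 98.8% of 139225 transcripts found in Gencode M39. The unmatched 0.392 to 0.639% of reads were left out. The deposited TPM values were used for transcript shares. The authors' TPM scale was not comparable between libraries, because transcripts with an effective length under 50 bases took 0.376 to 77.7% of a library's TPM, so levels are given as CPM with TMM scaling and not as the TPM that had been planned.

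Both cultures of a mouse and condition were summed and rounded, giving 30 samples. Differences were tested in R 4.3.3 with edgeR 4.0.16 (quasi-likelihood F test, filterByExpr, Benjamini-Hochberg over 12177 genes). A model of 6 groups served GK against the 5 combined groups and each GK+GKRP against GK, and a model of 10 conditions the rest. Comparisons with GK share its samples, and those with untreated share theirs. Standard errors were derived from the F statistic. The test was checked on simulated counts that held no differences between mice, so this check cannot tell whether pairing suits these samples. Same-numbered samples come from the same animal: deviations from condition means correlated at 0.223 within a mouse and at -0.11 between mice (82.2% of 135 pairs over 0.1), and the fit with the mouse as a replicate block is given beside results whose call it changes. The p-values measure the spread between samples of 3 mice.

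The alternatives were DESeq2 1.42.0, RLE normalization, other filters on low counts, 36 cultures as samples, effective lengths as an offset, leaving out each mouse and, chosen after seeing the data, leaving out the GK culture that held Gckr reads, alone and with the replicate block. Depth limits the precision of members with few reads. Members and gene lists were chosen with earlier results of these data known. Named were the 10 members, from each list the 2 to 4 genes with the largest absolute log2 fold change among those called, or else the 2 with the largest value, and the 8 genes most like Klf10. Called list genes named beyond this, and Klf16, were chosen after their values were seen. Promoter windows are the 250 bases before the start of the canonical Gencode M39 transcript, and stretches exonic in any annotated transcript were not printed beyond a site. The reference tables of promoters, on GRCm38, were not used. G6pc is listed as G6pc1. Some values that the rule would name are not reported here.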

Additional observations from a re-analysis of the deposited data

Results flagged for a closer look

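Gckr in the first GK culture of mouse 3 was at 1459 CPM, far above the other 5 GK cultures (51.7 to 97.8 CPM), and stood apart from them by Dixon's test. The same test over 24 groups would by chance single out about 1 in 20. In that culture Klf10 was at 109 CPM, the highest of all 36, and Klf15 at 4.66 CPM, and without it Klf10 differed from the 5 combined groups by log2 2.20 in place of 2.24. Its part in these values was not tested further.

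Klf11 differences with human GKRP-446L had opposite signs without and with GK, but neither was called, with or without pairing. Without pairing the fits gave log2 0.08 (SE 0.41) for hL against untreated and log2 -0.415 (SE 0.39) for GK+hL against GK. With hL against untreated Klf11 was higher in 3 of 3 mice (log2 0.12, 0.11 and 0.02, mean 0.08), and with GK+hL against GK lower in 3 of 3 (log2 -0.57, -0.25 and -0.48, mean -0.43). The second mean less the first was log2 -0.52. This difference was not tested, and it is 1 of 108 pairs of effects that were examined.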

How the results depend on the processing

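No estimate for a single member changed sign while called under any alternative: of 1728 values, 1684 kept their side of the threshold, 27 gained the call and 17 lost it. Of 213 counts of called members and other summaries, 175 stayed within 1.5 times. Counts below are members called of 9. With the mouse as a replicate block, 2 were called with GK against the 5 combined groups, 1 in GK+hL, 2 in GK+mP against GK, 1 with GK against untreated, 2 with hP, 2 with hL, 1 with mP, 2 with mL and 4 with the mean of the 4 vectors, 1 for the mean GK effect with vectors and 1 in GK+mL against GK+mP. The block changed no other count by over 1.5 times. It also called more of all genes. With the mean of the 4 vectors it called 3.1% raised and 1.05% lowered, against 1.49% and 0.402% without it. With GK against the 5 combined groups it called 1.3% raised and 0.69% lowered, against 0.394% and 0.0328%. Shares over all genes are not given for the other alternatives, so the counts do not compare the family with other genes. With effective lengths as an offset, 0 were called with GK against the 5 combined groups, in GK+hP, in GK+mP and in the mean of the 4 GK+GKRP conditions against GK. DESeq2 called 1 in GK+hL against GK, with GK against untreated, with hL, with mP and for the mean GK effect, and 10 conditions in the model 1 in GK+hL against GK. Taking the 36 cultures as samples gave 1 with GK against untreated, hL and mP, and no filter on low counts 1 with GK and 0 with the mean of the vectors, as did leaving out the GK culture that held Gckr reads (0). Leaving out a mouse gave 0 to 1 in GK+hP against GK, 0 to 0 in GK+mP against GK, 0 to 0 with the mean of the 4 vectors and 1 to 2 with the mean of the 4 GK+GKRP conditions. Of the 8 genes most like Klf10, 4 stayed among the first 8 with values centred within mouse.

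The GK to untreated ratio of Klf10 was log2 2.14 ± 0.84 (SD, n = 3) in TPM and 1.83 ± 0.32 in CPM. Depth limits Klf2 (a median of 3 reads), Klf4 (45), Klf11 (67), Klf12 (73) and Klf15 (71). With 3 mice and no vector control, effects of the adenovirus and of GKRP cannot be told apart against untreated cells. The same holds for the added vector and GKRP against GK. The causes of the lost and gained calls were not tested.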

Other observations

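By the measure used for Klf10, and chosen after its values were seen, the genes most like Klf15 over the 30 samples were Haus4 (r = 0.88), a subunit of the mitotic augmin complex, Slc29a1 (0.86), a nucleoside transporter, Tsen34 (0.84), a subunit of the tRNA splicing endonuclease, and Mavs (0.83), an adaptor of antiviral RNA sensing. Agfg2, Cldn14, Umps and Dnajb1 followed, with r between 0.82 and 0.83. Over the samples the r of the other Kruppel-like factors with Klf15 was at most 0.14 (Klf3). With the values centred within each mouse it was 0.66 for Klf4 (0.07 without centring), 0.46 for Klf9 (0.12) and 0.31 for Klf13 (0.10).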
